A study of Mus musculus with 12 samples.

Results

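The 30 genes described here make and regulate cholesterol: 20 enzymes of the path from acetyl-CoA to cholesterol and its prenyl side branch, 5 genes of the SREBP control system, and 5 genes of sterol transport and sterol sensing. They are listed by gene name for what they are known to do, and were chosen with earlier results of these data known. All 30 were found among the 19702 genes of the deposited count table. Whole mouse corneas were profiled by RNA sequencing in 12 libraries, 3 for each of 4 groups, and each library pooled 6 corneas of 3 mice. UCPRP corneas had received 5 µl of 0.2% benzalkonium chloride (BAK, a detergent preservative that injures the ocular surface) daily for 14 days and 5 µl of 20% UCPRP, a biologic derived from cord blood, 3 times daily for 10 days. UCS corneas had received the same BAK and, on the same schedule, 20% UCS, another cord blood product. Vehicle corneas had received the BAK, and no treatment is recorded for them. Control corneas had neither injury nor treatment. The labels give no strain, genotype, age or sex, do not expand UCS and UCPRP, and do not say whether the treatment days followed the BAK days or overlapped with them. Because a pool mixes all cells of the cornea, and also held lens and retina RNA, fewer cells of a type and less RNA per cell cannot be told apart.

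Cholesterol is built from acetyl-CoA by way of mevalonate, isoprenoid units, squalene and lanosterol, and nearly every enzyme of the path is a target of the transcription factor SREBP2. When membrane sterol is low, the escort protein SCAP carries SREBP2 to the Golgi, where it is cut and released. When sterol is high, INSIG proteins hold SCAP in the endoplasmic reticulum and transcription of the path falls. Oxysterols, which accumulate when cholesterol is plentiful, activate the nuclear receptors LXRα and LXRβ, which switch on the efflux pumps ABCA1 and ABCG1. The corneal epithelium renews itself continuously and needs membrane sterol for each new cell layer.

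Compared with Control corneas, injured corneas had less Insig1 and Tm7sf2 and more Abca1, whichever treatment they had received, while most synthesis enzymes did not pass the test in Vehicle or UCS corneas. In UCPRP corneas, 5 of the 20 synthesis enzymes were lower than in Control corneas, where 5.07% of all genes tested were lower. Of these 5, only Hmgcs1 kept its call under all 21 alternative fits. The regulator Srebf2 was lower in UCPRP and in UCS, and below all Control libraries but not past the threshold in Vehicle. No gene of the 30 passed the test between UCPRP and Vehicle, UCS and Vehicle, or UCPRP and UCS. The DNA just before the start sites of the 5 genes that these results turn on is shown here. It lets 4 motifs known from sterol-regulated promoters be seen beside the values, but elements bound by LXR were not searched for. Insig1, Srebf2 and Hmgcs1 belong to the SREBP2 system, Tm7sf2 is a sterol reductase and Abca1 belongs to the LXR branch. Each line holds the 250 bases before the start site, 5′ to 3′ on the gene's own strand, from RefSeq on GRCm38.p6. Insig1 lies at chr5:28071162-28071411 (plus strand), Srebf2 at chr15:82147019-82147268 (plus strand), Hmgcs1 at chr13:119690101-119690350 (plus strand), Tm7sf2 at chr19:6067851-6068100 (minus strand) and Abca1 at chr4:53159896-53160145 (minus strand). Capitals mark matches, on either strand, to 4 short motifs: the sterol regulatory element SRE (TCACNCCAC, or its first 8 letters TCACNCCA), the CCAAT box (CCAAT, which reads ATTGG on the other strand), the GC box (GGGCGG, or CCGCCC on the other strand) and the E box (CACGTG).
Insig1: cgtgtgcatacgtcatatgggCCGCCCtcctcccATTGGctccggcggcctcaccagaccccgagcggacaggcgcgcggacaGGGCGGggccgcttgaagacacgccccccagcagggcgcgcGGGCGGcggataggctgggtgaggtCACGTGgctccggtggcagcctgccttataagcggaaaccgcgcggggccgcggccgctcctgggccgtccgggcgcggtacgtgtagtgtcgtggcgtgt
Srebf2: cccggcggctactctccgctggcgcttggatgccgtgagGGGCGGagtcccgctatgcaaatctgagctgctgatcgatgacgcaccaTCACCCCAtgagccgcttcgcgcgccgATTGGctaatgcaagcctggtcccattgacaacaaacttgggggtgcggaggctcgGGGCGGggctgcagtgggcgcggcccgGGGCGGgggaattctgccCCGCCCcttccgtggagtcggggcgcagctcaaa
Hmgcs1: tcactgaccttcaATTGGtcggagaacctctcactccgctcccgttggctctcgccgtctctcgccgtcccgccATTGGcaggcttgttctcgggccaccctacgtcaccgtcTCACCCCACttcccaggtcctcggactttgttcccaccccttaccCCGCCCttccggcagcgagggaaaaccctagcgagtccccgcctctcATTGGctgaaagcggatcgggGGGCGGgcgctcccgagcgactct
Tm7sf2: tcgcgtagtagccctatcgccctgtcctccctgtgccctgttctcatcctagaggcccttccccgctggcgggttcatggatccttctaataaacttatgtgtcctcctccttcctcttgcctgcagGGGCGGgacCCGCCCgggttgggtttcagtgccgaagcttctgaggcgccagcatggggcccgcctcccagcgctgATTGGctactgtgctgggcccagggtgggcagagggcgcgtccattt
Abca1: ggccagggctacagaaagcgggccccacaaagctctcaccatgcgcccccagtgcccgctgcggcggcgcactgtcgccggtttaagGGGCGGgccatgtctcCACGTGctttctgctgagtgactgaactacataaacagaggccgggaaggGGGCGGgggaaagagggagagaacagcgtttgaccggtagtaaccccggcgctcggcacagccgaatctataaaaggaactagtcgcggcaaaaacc

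Positions of motifs are counted from the start site, with −1 the base just before it, and were searched over 300 bases, of which 250 lie before the start site and 50 from it on. The full element TCACNCCAC was found in 1 of the 34 annotated promoters of the 30 genes, that of Hmgcs1 at −137, against 1.24% of all 32851 mouse promoters in the table. Its first 8 letters, which overlap with the full element, were also found at −162 in Srebf2 and −177 in Msmo1, so that 3 of 34 promoters (8.82%) held them, against 4.36% of all. A CCAAT box was in 21 of the 34 promoters (61.8%) and in 37.4% of all promoters, and a GC box in 25 (73.5%) and in 35.7% of all. The E box was in 7 promoters (20.6%), among them those of Insig1 at −101 and Abca1 at −147, and in 7.15% of all. The 34 promoters belong to 25 genes, and Sqle, Fdps, Fdft1, Stard4 and Abcg1 are named only. A match describes the letters in the window and is no measure of binding. Unmarked letters, as in the Abca1 line, do not show that an element bound by LXR is absent.

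The libraries held 18.6 to 20.4 M estimated counts, and all 30 genes passed the filter on low counts, as did 16124 genes in all. Levels are given as counts per 1 M counts (CPM) scaled with the trimmed mean of M values (TMM), and a gene was called at a Benjamini-Hochberg adjusted p under 0.05 over all genes tested, from the quasi-likelihood test of edgeR. The labelled tissue was checked against its markers. Krt12, the keratin of differentiated corneal epithelium, stood at 15902 to 32870 CPM in Control libraries and at 3.29 to 186 CPM in the 9 libraries of injured corneas. The 13 corneal epithelium markers summed to 12060 to 15983 CPM in UCPRP and 12452 to 14557 in UCS. They summed to 12874 to 15226 CPM in Vehicle and 42125 to 86527 in Control, and none was at 0 in any group. Krt14 went the other way, averaging 3049 CPM in UCPRP, 3124 in UCS, 4754 in Vehicle and 740 in Control. In Vehicle against Control 10 of the 13 were called lower and 1 higher, where 6.92% and 9.58% of all genes were. The 12 conjunctival and goblet markers summed to 15224 to 19571 CPM in UCPRP, 16698 to 20429 in UCS, 14315 to 20456 in Vehicle and 5478 to 11039 in Control, with none at 0. The 13 macrophage markers, none at 0 in any group, summed to 956 to 987 CPM in UCPRP, 1003 to 1372 in UCS, 1163 to 1495 in Vehicle and 392 to 585 in Control. Transcripts of lens and retina, which lie outside the cornea, were in every library. They varied within every group, with lens markers at 212 to 31120 CPM over all libraries. In UCPRP replicate 3 the lens sum (31120 CPM) and the retina sum (15866.5 CPM) were both above the corneal epithelium sum (12060 CPM). The 13 retina markers summed to 5048 to 15866.5 CPM in UCPRP and 4719 to 10161 in UCS. They summed to 2659 to 12434 CPM in Vehicle and 3545 to 9802 in Control. Libraries also differed in Dbp, an output gene of the circadian clock: 8 had 139 to 280.3 CPM and 4 had 14.7 to 25.9 CPM (Control replicate 3, Vehicle replicates 1 and 2, UCS replicate 1). UCPRP thus had only libraries with high Dbp.

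**Figure D1:**
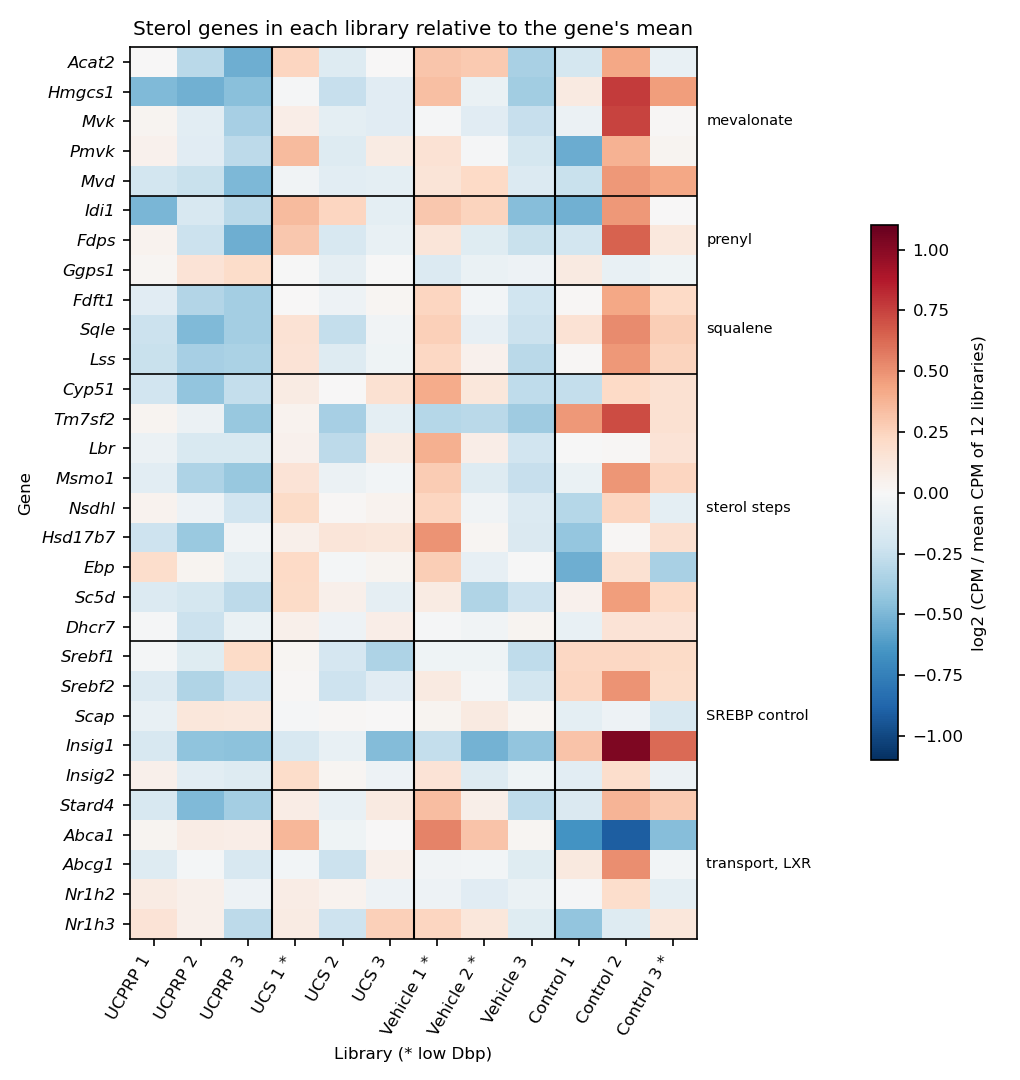
Level of each of the 30 genes in each library as log2 of its CPM over the gene's mean across 12 libraries (colour scale, blue below and red above the mean); columns run UCPRP, UCS, Vehicle, Control, an asterisk marks the 4 libraries with low Dbp, and rows are ordered by role. Control replicate 2 is red for most enzymes, Insig1 is red in the 3 Control libraries only, and Abca1 is blue there.

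The mevalonate steps condense acetyl-CoA and turn it into isopentenyl diphosphate. Hmgcs1, the synthase that makes HMG-CoA, had 248, 240.1 and 252 CPM in UCPRP corneas, 343, 290.4 and 319 in UCS, 436, 330.1 and 267 in Vehicle and 371, 591 and 477 in Control. All UCPRP libraries lay below all libraries of every other group, and the Vehicle range overlapped with that of Control. The difference between UCPRP and Control was −0.96 on the log2 scale (SE 0.20, edgeR adjusted p = 0.010), or 0.515 times the Control level. It was −0.92 within the libraries with high Dbp (3 UCPRP, 2 Control). Vehicle and UCS differed from Control by −0.48 (SE 0.20, adjusted p = 0.130) and −0.59 (SE 0.20, adjusted p = 0.0797), neither past the threshold. The exons of Hmgcs1 overlap with those of an antisense gene, Gm48342, and whether counting used the strand is not stated in these sources.

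The other mevalonate enzymes passed no test. They are Acat2, which joins acetyl-CoA units, the kinases Mvk and Pmvk, and the decarboxylase Mvd. Mvd was nearest to the threshold, with 29.8, 28.8 and 24.2 CPM in UCPRP and 28.8, 47.6 and 45.9 in Control (log2 difference −0.56, SE 0.17, adjusted p = 0.0662). Those ranges overlapped because Control replicate 1 was as low as UCPRP. Levels of the 4 genes ran from 24.2 CPM (Mvd, UCPRP replicate 3) to 84.7 CPM (Mvk, Control replicate 2).

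At the prenyl branch, Idi1 interconverts the isoprenoid units, Fdps joins them into farnesyl diphosphate and Ggps1 extends that to the geranylgeranyl group used to anchor proteins in membranes. None of the 3 was called in any comparison. Fdps had 347, 286 and 232 CPM in UCPRP, 414, 299 and 319.8 in UCS, 371, 308 and 285 in Vehicle and 293, 531 and 365 in Control, with wide overlap between all groups. Ggps1 had 44.9, 48.8 and 50.8 CPM in UCPRP, against 39.7, 41.9 and 42.3 in Vehicle. All UCPRP libraries were above all Vehicle libraries, but the difference of 0.22 (SE 0.08) had an edgeR adjusted p of 0.449. Ggps1 was also above all UCS libraries in UCPRP (0.16, SE 0.08, adjusted p = 0.985).

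The 3 enzymes that turn farnesyl diphosphate into lanosterol were all lower in UCPRP than in Control. Fdft1, squalene synthase, had 184, 161 and 155 CPM in UCPRP, 201, 193 and 203 in UCS, 236, 197 and 172 in Vehicle and 202, 269 and 233 in Control (UCPRP against Control −0.49, SE 0.14, edgeR adjusted p = 0.0468). Sqle, squalene epoxidase and a rate-limiting step, had 165, 139 and 150 CPM in UCPRP, 217, 162 and 189 in UCS, 233, 183 and 165 in Vehicle and 217, 279 and 235 in Control (−0.69, SE 0.16, adjusted p = 0.0189). Lss, lanosterol synthase, had 109.6, 100.4 and 102 CPM in UCPRP, 144, 118 and 126 in UCS, 152, 134 and 106 in Vehicle and 131, 181 and 154 in Control (−0.58, SE 0.15, adjusted p = 0.0329). For each of these enzymes the UCPRP and Control libraries did not overlap, while Vehicle replicate 3 lay within or next to the UCPRP range. In Vehicle against Control the 3 differences were −0.22, −0.33 and −0.25, none past the threshold (adjusted p = 0.353, 0.201 and 0.325). Within libraries of high Dbp, UCPRP against Control gave −0.49 for Fdft1, −0.70 for Sqle and −0.57 for Lss. Of these 3 calls in UCPRP against Control, Fdft1 held under 7, Lss under 12 and Sqle under 18 of 21 alternatives. Fdft1 and Lss were not called with a clock phase term or when only libraries with high Dbp were fitted (adjusted p at most 0.158 and 0.109 over all alternatives), while Sqle was. Without Control replicate 2 all 3 lost the call. Sqle also lost it without UCPRP replicate 2 or 3 (adjusted p up to 0.0794). Fdft1 and Lss carry fractional counts and overlap on the opposite strand with Ctsb and 4930483K19Rik.

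The remaining steps reduce, demethylate and isomerize lanosterol. Tm7sf2, a sterol C14 reductase that shares this activity with Lbr, was called in all 3 comparisons with Control. It had 23.2, 21.7 and 17.0 CPM in UCPRP, 23.3, 17.6 and 21.1 in UCS, 18.3, 18.5 and 17.3 in Vehicle and 31.6, 37.4 and 25.6 in Control. Every injured library was below every Control library. The log2 differences from Control were −0.61 in UCPRP (SE 0.16, edgeR adjusted p = 0.0328), −0.61 in UCS (SE 0.16, adjusted p = 0.0317) and −0.81 in Vehicle (SE 0.16, adjusted p = 0.00533). Lbr, which is also a receptor of the nuclear lamina, had 37.5 ± 1.66 CPM in UCPRP, 40.0 ± 5.5 in UCS, 44.2 ± 9.13 in Vehicle and 42.8 ± 2.58 in Control (SD, n = 3 each) and passed no test. Exons of Tm7sf2 overlap with those of Vps51 on the same strand, and its counts were whole numbers in every library. In UCPRP against Control, Tm7sf2 lost the call with a clock phase term, with only libraries of high Dbp, with only the 2 groups fitted, and without Control replicate 1 or 2 or UCPRP replicate 2 or 3 (adjusted p at most 0.122). In UCS against Control it lost the call with only the 2 groups fitted and without Control replicate 1 or 2 or UCS replicate 2 or 3 (adjusted p at most 0.124).

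Of the other 7 enzymes of these steps, none was called. Sc5d, the lathosterol desaturase, had 181, 177 and 165 CPM in UCPRP, 233, 209 and 188 in UCS, 214, 159.9 and 172 in Vehicle and 208, 277 and 234 in Control. UCPRP was below every library of Control and of UCS (−0.46 against Control, SE 0.14, adjusted p = 0.0666). Msmo1, a sterol demethylase, averaged 184 ± 20.2 CPM in UCPRP and 263 ± 50.7 in Control (SD, n = 3 each), without overlap (−0.52, SE 0.17, adjusted p = 0.0882). Cyp51, the lanosterol demethylase, averaged 155 ± 12.7 CPM in UCPRP, 203 ± 11.5 in UCS, 207 ± 48.3 in Vehicle and 199 ± 34.5 in Control. Ebp, the sterol isomerase, had the most positive differences from Control among the enzymes, 0.25 in UCPRP, 0.29 in UCS and 0.28 in Vehicle (SE 0.17 each; adjusted p = 0.415, 0.351 and 0.324). Nsdhl, Hsd17b7 and Dhcr7, which complete the demethylation and the last reduction, differed from Control by −0.18 (Dhcr7, UCPRP) to 0.21 (Hsd17b7, Vehicle) on the log2 scale.

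**Figure D2:**
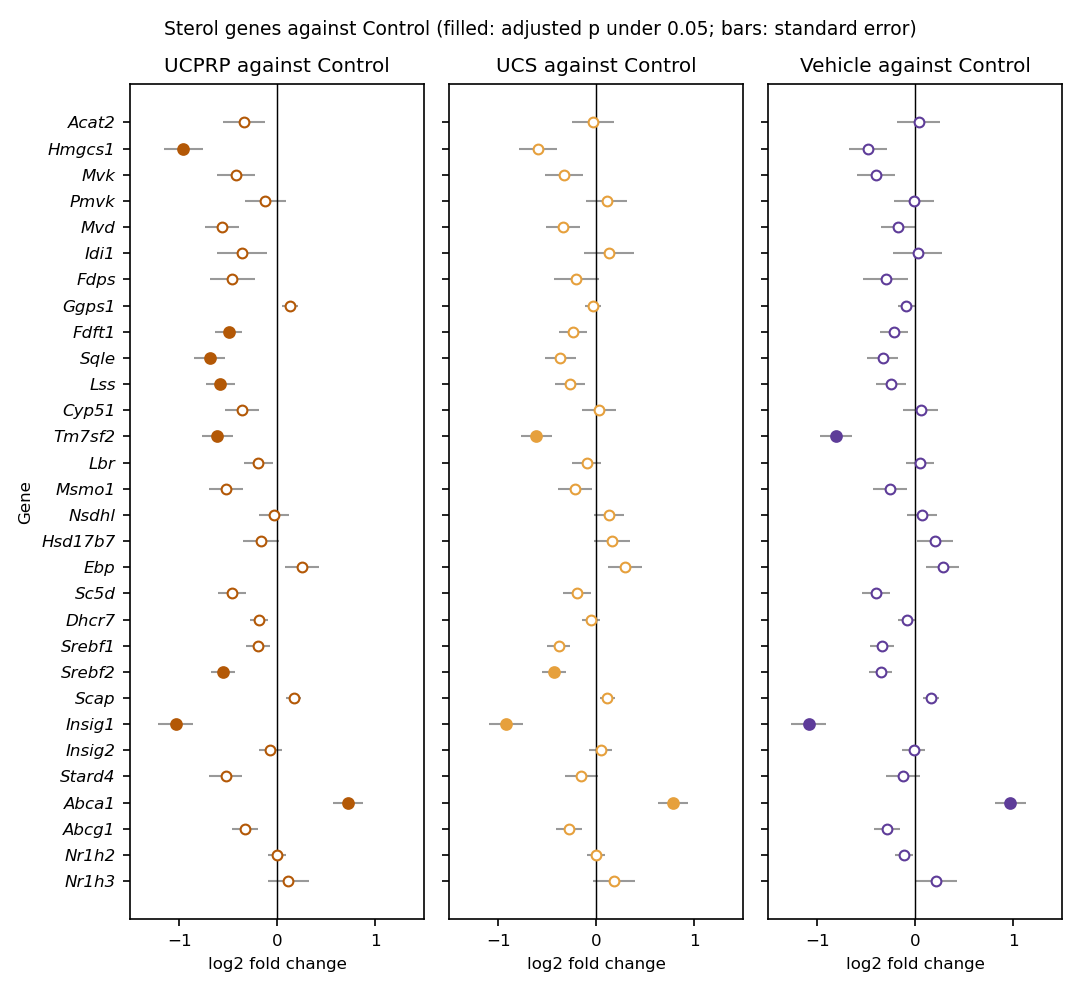
Log2 fold change of each gene against Control in UCPRP, UCS and Vehicle corneas (x axis), with the standard error implied by the edgeR test as bars; filled points have an adjusted p under 0.05 and genes run down the page by role. Insig1, Tm7sf2 and Abca1 are filled in all 3 panels, and the enzymes lie furthest to the left in the UCPRP panel.

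Among the regulators, Insig1 was the member that differed most from Control. Insig1, the sterol-dependent anchor of SCAP and itself a target of SREBP, had 159, 132 and 132 CPM in UCPRP, 159.6, 170.0 and 129.6 in UCS, 150.3, 126 and 133 in Vehicle and 224, 367 and 277 in Control. The lowest Control library was above the highest injured library, and the 3 injured groups overlapped with each other. The log2 differences from Control were −1.04 in UCPRP (SE 0.18, edgeR adjusted p = 0.00376), −0.92 in UCS (SE 0.18, adjusted p = 0.00635) and −1.09 in Vehicle (SE 0.18, adjusted p = 0.00166). Vehicle corneas thus held 0.471 times the Insig1 level of Control corneas. The difference of Vehicle from Control was −1.11 within the libraries with high Dbp (1 Vehicle, 2 Control) and −1.01 within those with low Dbp (2 Vehicle, 1 Control). When only libraries with high Dbp were fitted, a choice made after seeing the data, neither Insig1 nor Tm7sf2 was called in Vehicle against Control (adjusted p = 0.130 and 0.0823), with 1 Vehicle library left, and Insig1 was not called in UCS against Control (adjusted p = 0.0726). Insig2, the related anchor that is not driven by SREBP in the same way, had 71.5, 63.5 and 62.2 CPM in UCPRP, 78.7, 69.6 and 65.9 in UCS, 76.4, 62.2 and 66.3 in Vehicle and 63.3, 78.3 and 65.5 in Control, and passed no test.

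Srebf2, which encodes SREBP2, had 197, 175 and 188 CPM in UCPRP, 222, 188 and 202 in UCS, 235, 217 and 191 in Vehicle and 259, 310.0 and 252 in Control. No injured library reached the lowest Control library. It was called in UCPRP (−0.55, SE 0.12, edgeR adjusted p = 0.0144) and UCS (−0.43, SE 0.12, adjusted p = 0.0449) and was not past the threshold in Vehicle (−0.35, SE 0.12, adjusted p = 0.0732). The call in UCS held under 6 of 21 alternatives and was lost with a clock phase term. The call in UCPRP was lost with only the 2 groups fitted and without UCPRP replicate 2 or 3 (adjusted p up to 0.0661). Srebf1, which encodes the SREBP1 forms that act mainly on fatty acid synthesis, had 126, 116 and 148 CPM in UCPRP, 129.6, 113 and 101 in UCS, 124, 124 and 105 in Vehicle and 149.8, 149.7 and 148 in Control. Its differences from Control were −0.20, −0.38 and −0.34 in UCPRP, UCS and Vehicle, none past the threshold (adjusted p = 0.374, 0.0699 and 0.0820). Scap, the sterol-sensing escort, averaged 78.2 ± 6.18 CPM in UCPRP, 75.3 ± 0.475 in UCS, 77.9 ± 2.20 in Vehicle and 69.5 ± 2.94 in Control (SD, n = 3 each), with every UCS and Vehicle library above every Control library and no call.

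In the transport and sensing branch, Abca1 was the only one of the 30 genes called higher in any comparison. Abca1, the pump that loads cholesterol onto apolipoprotein A-I, had 58.0, 60.4 and 59.9 CPM in UCPRP, 73.5, 55.2 and 57.2 in UCS, 83.0, 70.9 and 58.0 in Vehicle and 36.2, 30.4 and 41.3 in Control. All 9 injured libraries were above the 3 Control libraries. The log2 differences from Control were 0.72 in UCPRP (SE 0.16, edgeR adjusted p = 0.0134), 0.79 in UCS (SE 0.16, adjusted p = 0.00779) and 0.97 in Vehicle (SE 0.16, adjusted p = 0.00151), the last being 1.96 times the Control level. Without Control replicate 2 the call in UCPRP was lost (adjusted p = 0.0623). Macrophages are known to express Abca1, and 12 of the 13 macrophage markers were called higher in Vehicle than in Control, where 9.58% of all genes tested were. The part of macrophages in the Abca1 difference was not tested.

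The partner pump Abcg1 did not share the direction of Abca1. It averaged 82.1 ± 4.62 CPM in UCPRP, 84.9 ± 8.70 in UCS, 84.6 ± 3.39 in Vehicle and 103 ± 20.9 in Control (SD, n = 3 each), with differences from Control of −0.33, −0.28 and −0.28 and no call. The LXR genes themselves were also not called. Nr1h3, which encodes LXRα, had 5.17, 4.83 and 3.80 CPM in UCPRP, 4.94, 3.96 and 5.57 in UCS, 5.47, 5.08 and 4.24 in Vehicle and 3.45, 4.21 and 5.07 in Control. Nr1h2, which encodes LXRβ, averaged 113 ± 5.98 CPM in UCPRP, 113 ± 5.47 in UCS, 105 ± 2.53 in Vehicle and 113 ± 12.2 in Control. Stard4, a carrier of cholesterol between membranes and a known SREBP2 target, had 56.7, 45.6 and 49.4 CPM in UCPRP and 57.1, 83.0 and 78.2 in Control, and its difference of −0.53 (SE 0.17) missed the threshold (adjusted p = 0.0798).

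**Figure D3:**
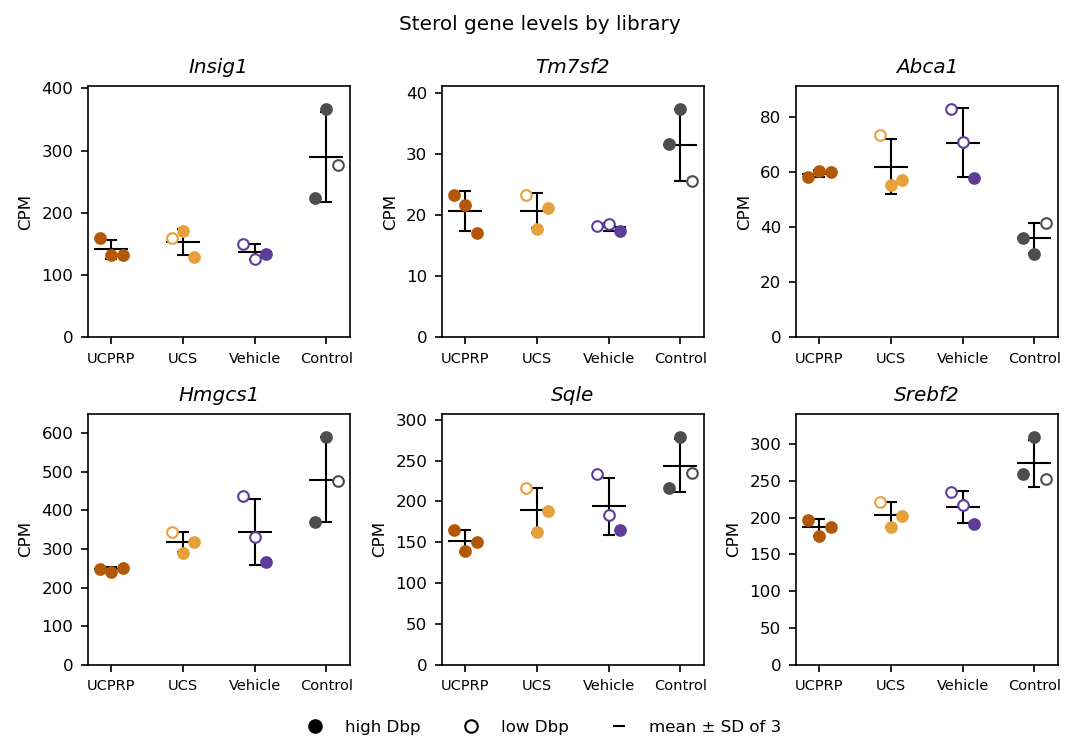
CPM of 6 genes in each library by group (points; open points are libraries with low Dbp), with the mean and SD of 3 libraries as bars and y axes starting at 0. Control stands apart for Insig1, Tm7sf2, Srebf2 and Abca1, and for Hmgcs1 and Sqle UCPRP lies below Control while Vehicle spans the gap between them.

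Per kilobase of exon, which allows levels of different genes to be set beside each other, Hmgcs1 was highest in Control at 104 CPM per kb, followed by Fdps at 94.2 and Insig1 at 93.6. In Vehicle, Fdps led at 76.4 CPM per kb, Hmgcs1 had 75.0 and Insig1 44.1. Lowest in every group was Nr1h3, with 1.83 CPM per kb in UCPRP, 1.92 in UCS, 1.96 in Vehicle and 1.69 in Control. Abca1 had 5.74 CPM per kb in UCPRP, 5.98 in UCS, 6.82 in Vehicle and 3.47 in Control, and Tm7sf2 had 4.69 in UCPRP, 4.69 in UCS, 4.09 in Vehicle and 7.16 in Control.

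Set against all genes tested, the share of members called in Vehicle corneas was not above that of all genes. In Vehicle against Control 1 of 30 was higher, where 9.58% of all genes tested were higher, and 2 were lower, where 6.92% of all were lower. The median log2 difference was −0.12 over the members and −0.00 over all genes. Counted without a test, 2 members had all Vehicle libraries above all Control libraries and 4 below, against 15.2% and 15.4% of all genes. For UCS against Control, 1 member was higher (6.40% of all genes) and 3 were lower (4.47% of all genes), with a median of −0.12. All UCS libraries were above all Control libraries for 2 members (14.9% of all genes) and below for 5 (14.0% of all genes).

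UCPRP corneas differed from Control in more of these genes. There 7 of 30 members (23.3%) were lower, where 5.07% of all genes were, and 1 was higher, where 5.30% were. The 7 were Hmgcs1, Fdft1, Sqle, Lss, Tm7sf2, Srebf2 and Insig1. The median difference was −0.35 over the members and 0.04 over all genes, and 24 members were negative. All UCPRP libraries were below all Control libraries for 11 members (13.7% of all genes) and above for 1 (14.5% of all genes). The 20 enzymes had a median of −0.39 in UCPRP, −0.14 in UCS and −0.13 in Vehicle against the same Control libraries. Within libraries of high Dbp the member median was −0.34 in UCPRP against Control (3 and 2 libraries) and −0.41 in Vehicle against Control (1 and 2 libraries). Within libraries of low Dbp, Vehicle against Control gave −0.07 (2 and 1 libraries). With a clock phase term, and also with only libraries of high Dbp, 4 of the 7 were called: Hmgcs1, Sqle, Srebf2 and Insig1. The count of 7 fell to 3 without Control replicate 2 and to 2 without UCPRP replicate 2 or 3. The corneal epithelium markers differed between the same groups, and the 13 retina markers had a median difference of 0.64 with none called. The part of either in the differences of the members was not tested.

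Between the injured groups no gene of the genome was called: 0% of the 16124 genes in either direction in UCPRP against Vehicle, UCS against Vehicle and UCPRP against UCS, with DESeq2 and limma-voom also calling none of the 30. At an unadjusted edgeR p under 0.05, the test marked 6 members in UCPRP against Vehicle (5 lower, 1 higher), 0 in UCS against Vehicle and 1 lower in UCPRP against UCS. The corresponding counts over all genes were 1572, 782 and 393. The lower 5 in UCPRP against Vehicle were Hmgcs1 (−0.48, SE 0.20, unadjusted p = 0.0313, adjusted p = 0.472), Mvd (−0.39), Sqle (−0.36), Cyp51 (−0.41) and Stard4 (−0.40), and the higher was Ggps1. The smallest adjusted p of a member was 0.449 in UCPRP against Vehicle, 1.0 in UCS against Vehicle and 0.985 in UCPRP against UCS. The member median was −0.13 in UCPRP against Vehicle (24 of 30 negative; 0.03 over all genes) and −0.01 in UCS against Vehicle. Within the libraries with high Dbp, UCPRP against Vehicle had a member median of 0.03 (3 and 1 libraries, 13 of 30 negative). The 1 Vehicle library there, replicate 3, was the lowest of its group for 23 of 30 members. Clock phase and library thus cannot be told apart in that comparison.

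UCPRP and UCS can be set side by side, since dose, volume and schedule were the same. UCPRP was lower in 26 of 30 members, with a median of −0.15 (0.02 over all genes) and −0.10 within libraries of high Dbp (3 and 2 libraries). All UCPRP libraries were below all UCS libraries for 10 members, against 5.73% of all genes, and above for 1, against 4.92% of all genes. The 10 were Hmgcs1, Mvd, Idi1, Fdft1, Lss, Cyp51, Msmo1, Hsd17b7, Sc5d and Stard4, and none passed the test. In UCPRP against Vehicle all libraries were below for 3 members (7.13% of all genes) and above for 1 (6.68% of all genes). In UCS against Vehicle 1 member was below (4.43% of all genes) and 1 above (5.02% of all genes). Comparisons that share a group are not independent of each other.

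The 20 enzymes summed to 2243, 2010.4 and 1938 CPM in UCPRP, 2721, 2297 and 2426 in UCS, 2903, 2374 and 2082 in Vehicle and 2341, 3456 and 2821 in Control. UCPRP was below all UCS and all Control libraries, and overlapped with Vehicle through Vehicle replicate 3. Libraries moved as a whole: Control replicate 2 was the highest of its group for 24 of 30 members, Vehicle replicate 1 for 23, UCPRP replicate 1 for 22 and UCS replicate 1 for 20. Each of these libraries also had the lowest sum of the 13 retina markers in its group. Those sums were 3545 CPM in Control replicate 2, 2659 in Vehicle replicate 1, 5048 in UCPRP replicate 1 and 4719 in UCS replicate 1. At the other end, UCPRP replicate 3 and Control replicate 1 were lowest for 17 and 22 members and had the highest retina sums of their groups. Vehicle replicate 3 and UCS replicate 2 were lowest for 23 and 21 members. There the highest retina sums were in Vehicle replicate 2 and UCS replicate 3 instead. The part of retina RNA in this order was not tested. Control replicate 2 also had the highest corneal epithelium marker sum, 86527 CPM, and the lowest TMM factor, 0.825.

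**Figure D4:**
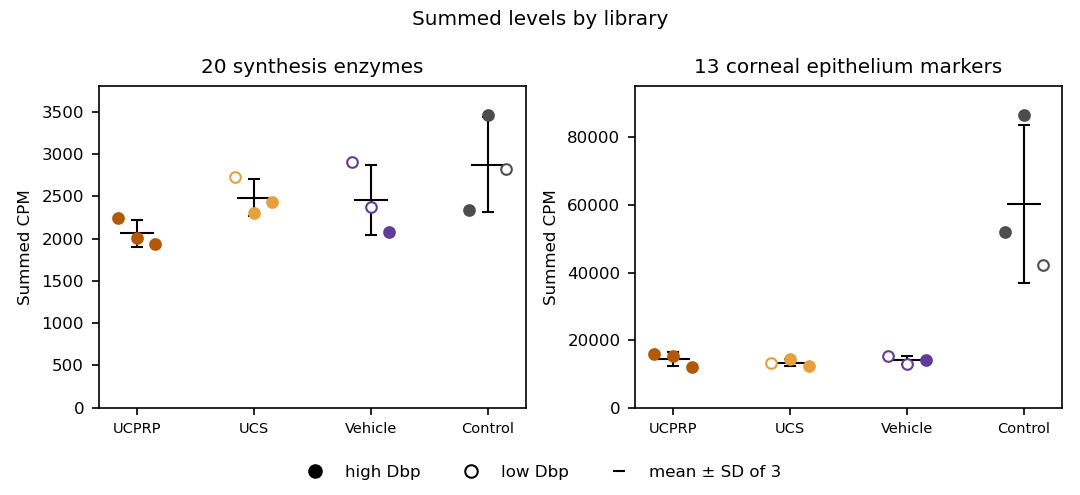
Summed CPM of the 20 synthesis enzymes (left) and of the 13 corneal epithelium markers (right) in each library by group; open points are libraries with low Dbp and bars are the mean and SD of 3 libraries. UCPRP has the lowest enzyme sums, 1938 to 2243 CPM, overlapping only with Vehicle replicate 3, whereas the epithelial markers separate Control from all injured groups.

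Genes next to the pathway were counted in Vehicle against Control, where 9.58% of all genes tested were higher and 6.92% lower. The acetyl-CoA supply list had 1 of 5 tested genes lower and 0 higher: Acss2, which makes acetyl-CoA from acetate, averaged 46.1 ± 4.03 CPM in Vehicle and 87.0 ± 22.4 in Control (SD, n = 3 each; −0.92, SE 0.18, edgeR adjusted p = 0.00455). In UCPRP, Acss2 differed from Control by −0.70 (SE 0.18, adjusted p = 0.0273).

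Esterification and oxysterol genes were called in both directions, with 4 of 11 higher and 3 lower in Vehicle, where 9.58% and 6.92% of all genes were. The sterol hydroxylases Cyp27a1 and Cyp7b1 were higher: Cyp27a1 had 30.8 ± 5.95 CPM in Vehicle and 14.7 ± 2.16 in Control (1.07, SE 0.22, edgeR adjusted p = 0.00666), and Cyp7b1 21.5 ± 6.15 in Vehicle and 5.84 ± 0.460 in Control (1.88, SE 0.29, adjusted p = 0.00121). Soat2, which esterifies cholesterol, had 4.03, 3.17 and 1.74 CPM in Vehicle and 0.824, 0.593 and 0.984 in Control (1.88, SE 0.43, adjusted p = 0.0114). Ces1d, a carboxylesterase, had 25.4 ± 14.5 CPM in Vehicle and 126 ± 10.0 in Control (−2.31, SE 0.40, adjusted p = 0.00237).

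The other lists had 1 to 3 genes called each, to be read against 9.58% of all genes higher and 6.92% lower; 1 of 12 or 1 of 14 is near those shares. Of 22 further sterol transport genes tested, 2 were higher and 1 lower in Vehicle: Stard5 (1.40, SE 0.17, edgeR adjusted p = 0.000290) and Gramd1a (0.53), both carriers of sterol between membranes, and Osbpl5 (−0.60), a lipid transfer protein. Of 7 other LXR targets, Arl4c was higher (0.74, SE 0.12, adjusted p = 0.00129) and Mylip, a ubiquitin ligase (−0.47), and Smpdl3a (−0.74) were lower. Of 14 further genes of the SREBP machinery only Sec24d, a coat protein of the vesicles that leave the endoplasmic reticulum, was called (0.91, SE 0.12, adjusted p = 0.000404). In the isoprenoid branch Nus1, needed for dolichol synthesis, was the 1 of 12 called (0.54). Among 18 fatty acid genes known as SREBP1 targets, Elovl6 was lower (−0.59) and Me1 higher (0.46). The lists were counted over all genes tested, and none was tested as a set.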

How the data were processed

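Total RNA of pooled corneas was extracted with the RNeasy kit and sequenced from TruSeq Stranded Total RNA libraries, per the labels' protocols. The submitters' processing notes name HISAT and GRCm38 without versions. No source used here states the counting tool, annotation or use of strand. The authors deposited estimated counts for each gene, unscaled and 64.9% of them whole, which were rounded here. Of the 30 genes, 12 had fractional values in some library and 12 have exons that overlap with another gene, 9 of them on the opposite strand, so their counts are uncertain. Library totals were 18.6 to 20.4 M, and the lowest count of a member in any library was 67 (Nr1h3).

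Genes were kept with filterByExpr (minimum count 10), scaled with TMM and compared by edgeR 4.0.16 (R 4.3.3), using its robust quasi-likelihood F test, with 1 term per group over all 12 libraries and 6 pairwise comparisons. SEs were derived from each F statistic and the size of its log2 fold change. P-values measure the spread between pools. CPM were computed on TMM-scaled totals. Alternatives used limma 3.58.1, DESeq2 1.42.0, other scaling, no filter, a replicate block, a clock term and leaving out each library. Exon lengths come from GENCODE M21, and promoters and coordinates from RefSeq on GRCm38.p6. The scripts were tested on simulated data.

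The 30 genes and all lists were chosen with earlier results of these data known. By rule, per-library values are given for called members and for Insig1, Insig2, Srebf1, Srebf2, Abca1 and Nr1h3; those of Mvd, Fdps, Ggps1, Sc5d and Stard4 were added after their values were seen. From each other list the up to 4 called genes with the largest change in Vehicle against Control and at least 1 CPM are named. Some results of these lists are withheld and not reported here. No label pairs the libraries by replicate number. Deviations of same-numbered libraries correlated at −0.58 to 0.49, over 0.1 in 7 of 18 pairs. For replicate 1, r was 0.35 (UCPRP and UCS), 0.49 (UCPRP and Vehicle) and 0.34 (UCS and Vehicle). Replicate 1 of Control gave −0.21 with UCPRP, −0.23 with UCS and −0.58 with Vehicle. With 3 libraries per group these values cannot decide whether numbers mark a shared batch.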

Additional observations from a re-analysis of the deposited data

Results flagged for a closer look

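Sc5d, the lathosterol desaturase, lay on opposite sides of the Vehicle mean in the treated groups, although both overlapped with the Vehicle libraries (214, 159.9 and 172 CPM). Every UCPRP library was below the Vehicle mean of 182 CPM (181, 177 and 165 CPM), and every UCS library was above it (233, 209 and 188 CPM). Within libraries of high Dbp, the log2 difference of UCPRP from Vehicle was 0.02 (3 and 1 libraries). The difference of UCPRP from UCS was −0.27 on the log2 scale (SE 0.14) and did not pass the edgeR test (adjusted p = 0.985).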

How the results depend on the processing

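Of 3780 results (180 differences of the 30 genes under 21 alternatives), 3694 kept their direction and side of the threshold or were never called, 60 lost a call, 26 gained one and 0 reversed a call, while 202 uncalled differences changed sign. Members lower in UCPRP against Control numbered 7, and 11 with DESeq2, 3 with only the 2 groups fitted, 4 with a clock phase term, 4 with high-Dbp libraries only, and 2 to 9 when leaving out a replicate. Members lower in UCS against Control numbered 3, and 5 with DESeq2, 1 with only the 2 groups fitted, 1 with high-Dbp libraries only, and 1 to 4 when leaving out a replicate (1 without Control replicate 2, UCS replicate 2 or UCS replicate 3). Members lower in Vehicle against Control numbered 2, and 5 with DESeq2, 0 with high-Dbp libraries only, and 2 to 4 when leaving out a replicate (4 without Vehicle replicate 1). Members higher numbered 1 in each comparison with Control, and 2 with library totals in place of TMM in Vehicle and in UCS. When leaving out a replicate they ranged from 1 to 2 in Vehicle, 1 to 2 in UCS and 0 to 1 in UCPRP, with the departures from 1 all without Control replicate 2. With library totals the median of all genes was 0.12 in UCPRP and 0.11 in Vehicle against Control, where TMM gave 0.04 and −0.00. With the replicate block, although no label pairs the libraries by number, members lower were 5 in UCPRP, 2 in UCS and 2 in Vehicle against Control. The causes of these changes were not tested. High-Dbp libraries only was chosen after seeing the data. Nr1h3, with 67 to 109 counts per library, is the member whose precision depth limits most.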
